A study of Mus musculus with 4 samples.

Results

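The regions described here are the BCL6 peaks of mouse adipocyte nuclei that lie far from the promoters of the authors' annotation. A peak was taken where the authors' annotation called it intergenic, named no repeat at its position and placed it more than 50 kb from the nearest promoter. The rule used position alone and no score. It took 284 of 1785 inguinal peaks, or 15.9% with a Wilson 95% interval of 14.3 to 17.7%, and 588 of 3956 perigonadal peaks, or 14.9% (13.8 to 16.0%). Together they are 872 of 5741. The study mapped BCL6 by chromatin immunoprecipitation and sequencing to find the genes it regulates in fat. Both groups were C57BL/6 mice of the genotype Adipoq-Cre;Sun1-sfGFP-myc, one for subcutaneous (inguinal) and one for visceral (perigonadal) adipose tissue. Adipoq-Cre is active in adipocytes, so the tag marks the nuclear envelope of these cells, and the tagged nuclei were collected on c-myc beads. All tissue was fixed with disuccinimidyl glutarate for 30 minutes and with 1% formaldehyde for 10 minutes, and the antibody against BCL6 was a custom polyclonal one raised in guinea pig. Each of the 2 depots had 1 BCL6 library. The inputs were not analysed here, and neither the animals behind a library nor their age is given in the sources used here. No difference between depots could therefore be set against variation between animals, and no test was made.

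BCL6 is a zinc finger repressor that recruits corepressors and histone deacetylases, and its recognition sequence resembles the sites of STAT factors. It is best known from germinal centre B cells, where much of its binding lies in enhancers away from promoters. Enhancers can act over long stretches of non-coding DNA and often skip the closest gene, so the gene nearest to a distal site is a neighbour and not a shown target.

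No genome of the build mm10 was used here, so bases could be printed only for distal peaks that meet a promoter window of the RefSeq table of GRCm38.p6, which has the chromosomes of mm10. A window runs from 250 bases before a gene start to 50 bases after it. Such an overlap was found for 4 distal peaks, each at a non-coding RNA gene that the authors' annotation had not used as the nearest promoter, and all 4 were without a partner in the other depot. The windows of 3 of them are shown to place these peaks at the starts of RNA genes, and capitals mark the bases that lie inside the peak. Gm13816 has its window at chr2:92741980-92742279 on the plus strand, with an inguinal peak of score 10.5. Gm38811 is at chr6:51711156-51711455 on the minus strand and Gm32833 at chr13:42403340-42403639 on the minus strand, with perigonadal peaks of 9.7 and 8.82.
Gm13816: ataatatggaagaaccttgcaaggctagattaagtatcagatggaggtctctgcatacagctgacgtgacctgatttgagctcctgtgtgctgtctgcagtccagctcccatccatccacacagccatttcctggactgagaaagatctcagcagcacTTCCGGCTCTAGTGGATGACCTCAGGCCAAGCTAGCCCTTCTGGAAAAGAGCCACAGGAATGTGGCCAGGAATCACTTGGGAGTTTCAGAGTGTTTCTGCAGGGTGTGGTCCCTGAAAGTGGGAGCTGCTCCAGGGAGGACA
Gm38811: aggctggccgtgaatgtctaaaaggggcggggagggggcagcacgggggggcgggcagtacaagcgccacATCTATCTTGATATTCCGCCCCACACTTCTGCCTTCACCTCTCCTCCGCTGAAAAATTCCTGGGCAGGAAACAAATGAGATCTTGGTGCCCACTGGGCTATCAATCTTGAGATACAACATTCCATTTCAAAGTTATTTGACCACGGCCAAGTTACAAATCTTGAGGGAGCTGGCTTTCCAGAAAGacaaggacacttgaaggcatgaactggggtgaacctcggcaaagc
Gm32833: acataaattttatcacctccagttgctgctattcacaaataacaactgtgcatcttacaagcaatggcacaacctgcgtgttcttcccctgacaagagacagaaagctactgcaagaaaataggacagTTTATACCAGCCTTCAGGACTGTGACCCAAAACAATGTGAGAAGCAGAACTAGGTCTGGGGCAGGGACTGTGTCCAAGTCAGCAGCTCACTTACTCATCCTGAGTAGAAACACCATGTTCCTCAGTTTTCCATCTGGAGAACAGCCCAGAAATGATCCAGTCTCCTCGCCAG
By the authors' distances these peaks lay 142.5 kb from Chst1, 166.8 kb from Snx10 and 102.1 kb from Edn1. The other, near Lin7a with a score of 9.7, covered 37 bases of the window of Gm29674. The STAT-like core TTCNNNGAA and the BCL6 core TTCCTAGAA, which is a special case of the STAT-like core, were searched on both strands. Neither was found in the 4 windows. Among all 32851 RefSeq windows of 300 bases, 8.3% held the STAT-like core and 0.411% the BCL6 core.

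Peak scores rose in equal steps of 0.752 (inguinal) and 0.881 (perigonadal), and a step was read as 1 sequenced tag. Scores are scaled within a list and give no direction between depots. The median distal peak scored 9.03, or 12 tags, in inguinal fat (range 6.77 to 45.1) and 8.82, or 10 tags, in perigonadal fat (6.17 to 68.8). These medians equal those of the whole lists. Distal peaks were scarce among the tallest of either list. None of the 10 tallest peaks was distal in either depot, 2 of the 50 tallest were distal in each (4%, 1.10 to 13.5%), and 10 inguinal and 7 perigonadal ones were among the 100 tallest. The interval at the 50 tallest lies below that of the distal share of each list. Among the 200 tallest, 25 and 27 were distal, 12.5% (8.61 to 17.8%) and 13.5% (9.45 to 18.9%), close to their share of all peaks. Of the distal peaks 41.5% had more than 12 tags in inguinal fat (36.0 to 47.4%) and 26.4% in perigonadal fat (23.0 to 30.1%). Intergenic peaks within 50 kb of a promoter passed this height more often, at 55.5% (49.7 to 61.2%) and 34.4% (30.7 to 38.4%), with intervals that did not overlap those of the distal peaks. The deposited focus ratio, the fraction of a peak's tags that lie on the side of its centre expected from their strand, had a median of 0.833 for distal peaks in both depots, of 0.812 for the whole inguinal list and of 0.833 for the whole perigonadal list.

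**Figure D1:**
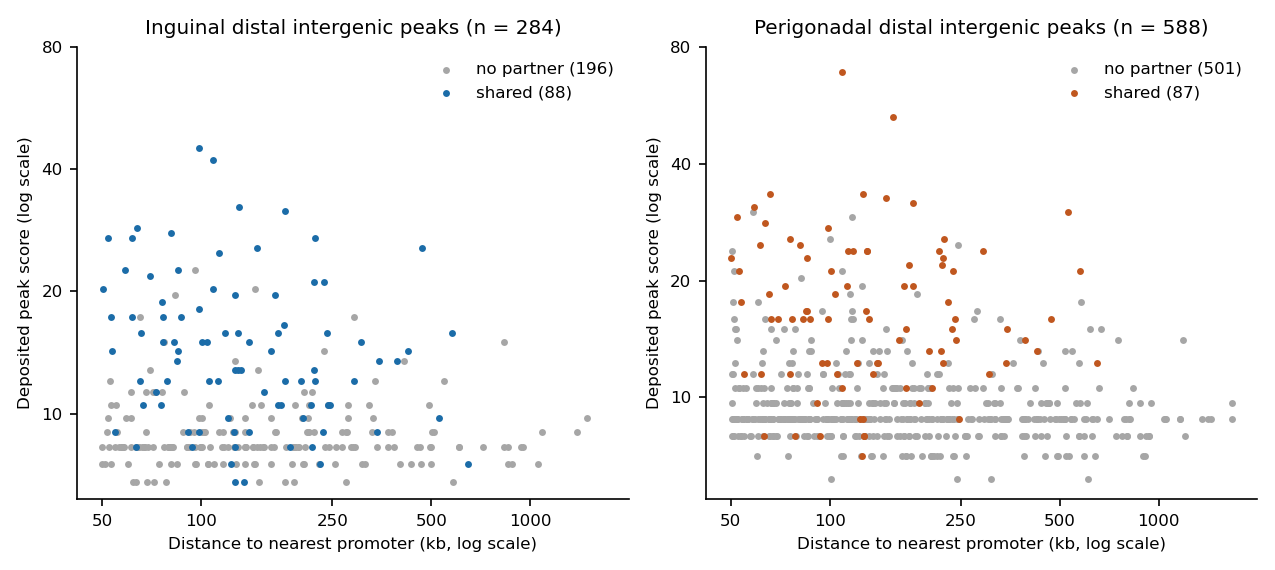
Deposited peak score against the distance to the nearest promoter in kb, both on log scales, for the 284 inguinal and 588 perigonadal distal peaks, with 1 point per peak. Coloured points overlap a peak of the other list (88 and 87). They gather among the higher scores, and few lie beyond 250 kb.

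The first question was how many distal sites were found in both depots. A peak counted as shared where it overlapped any peak of the other list by at least 1 bp. Of the inguinal distal peaks 88 of 284 were shared, 31.0% (25.9 to 36.6%), against 28.5% of the whole inguinal list. Of the perigonadal distal peaks 87 of 588 were shared, 14.8% (12.2 to 17.9%), against 12.8% of the whole list. The shares of distal peaks were thus near those of all peaks. With both lists held to 1785 peaks by score, 27.5% of inguinal and 28.8% of perigonadal distal peaks were shared. Intergenic peaks nearer to promoters had 37.8% (32.4 to 43.6%) and 17.6% (14.8 to 21%), intronic peaks 29.6% and 13.6%, and promoter peaks 33.0% and 18.1%. Distal intergenic peaks in annotated repeats, which the rule leaves out, were shared at 14.3% of 105 and 5.76% of 278. They were also lower: 73.3% and 89.2% had up to 12 tags, against 58.45% and 73.64% of the distal peaks outside repeats. Above that height 50% (32.6 to 67.4%) and 43.3% (27.4 to 60.8%) of the peaks in repeats were shared.

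Sharing followed height. Among distal peaks of more than 12 tags, 71 of 118 inguinal ones were shared, 60.2% (51.2 to 68.6%), against 59.1% of all inguinal peaks of that height. In perigonadal fat 73 of 155 were shared, 47.1% (39.4 to 54.9%), against 43.6%. Of the distal peaks of up to 12 tags, 10.2% and 3.23% were shared. Above 20 tags 34 of 39 inguinal peaks (87.2%, 73.3 to 94.4%) and 36 of 47 perigonadal peaks (76.6%, 62.8 to 86.4%) had a partner. At matched height the intervals of the distal, near intergenic and intronic classes overlapped in each depot. Distal sites above 20 tags without a partner numbered 5 in inguinal and 11 in perigonadal fat. Lack of a partner says that the other list has no call at the site.

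**Figure D2:**
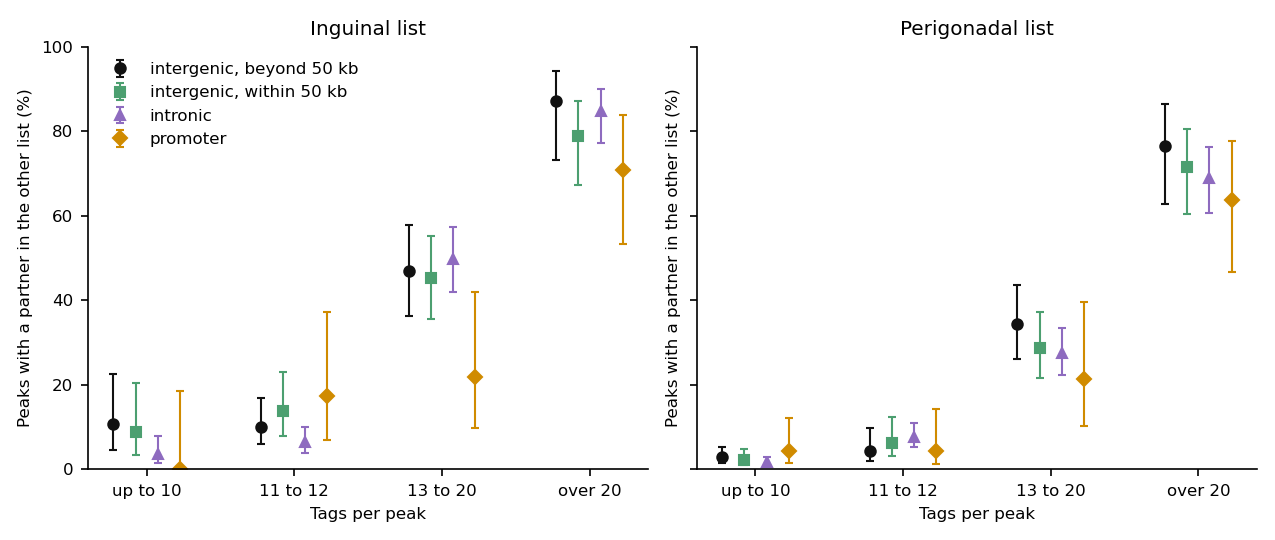
Percent of peaks with a partner in the other list, by tags per peak and by position, with Wilson 95% intervals. Distal peaks rise from 10.6% at up to 10 tags to 87.2% above 20 tags in inguinal fat and from 2.83% to 76.6% in perigonadal fat, and their intervals overlap those of the near intergenic and intronic classes in each bin.

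Distance within the distal class was also compared. The median distance to the nearest promoter was 135.3 kb in inguinal and 139.2 kb in perigonadal fat. Peaks upstream of the nearest promoter made up 51.8% (46.0 to 57.5%) and 54.9% (50.9 to 58.9%). Between 50 and 250 kb 35.1% of inguinal peaks were shared (29.2 to 41.6%), and beyond 250 kb 10 of 62, or 16.1% (9 to 27.2%). The perigonadal shares were 17.9% (14.6 to 21.8%) and 10 of 158, or 6.33% (3.47 to 11.3%). In both depots the intervals of the nearer and farther peaks did not overlap. Height moved with distance: 30.6% (20.6 to 43.0%) of the farther inguinal peaks had more than 12 tags and 44.6% (38.2 to 51.2%) of the nearer ones. In perigonadal fat these were 16.5% (11.5 to 23.0%) and 30% (25.9 to 34.5%), where the intervals did not overlap. Counting just peaks above 12 tags, the nearer and farther shares were 63.6% (53.8 to 72.4%) and 42.1% (23.1 to 63.7%) in inguinal fat, and 48.8% (40.4 to 57.4%) and 38.5% (22.4 to 57.5%) in perigonadal fat, and the intervals overlapped in each. The part of height in the difference was not otherwise tested. The farthest inguinal members lay 1486.3 kb from Cdh11, a cadherin gene of mesenchymal cells, 1388.5 kb from the non-coding gene C130030K03Rik and 1086.3 kb from Crim1, with scores of 9.78, 9.03 and 9.03. In perigonadal fat they lay 1669.7 kb from 2610316D01Rik, 1667.4 kb from Nlgn1, which encodes neuroligin-1, and 1439.3 kb from Cdh11, with 8.82, 9.7 and 8.82. All 6 peaks were without a partner. The one assigned to Nlgn1 lies inside the RefSeq gene model of Naaladl2.

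The inguinal members just beyond the limit of 50 kb were those of Mir125b-2 at 50.02 kb with 8.27 and of 4930517M08Rik at 50.03 kb with 7.52. Just short of it, and so left out, were those of Klhl24 at 49.92 kb with 20.3, which was shared, and Klhl6 at 49.48 kb with 15.0. In perigonadal fat the members just beyond it were at Rgs3, 50.04 kb with 22.9 and shared, and at Olfml2b, 50.27 kb with 9.7. Those left out just short of it were at Cav1, 49.83 kb with 7.93, and Il12a, 49.7 kb with 9.7.

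The shared distal peaks formed 89 sites. At 86 of them the peak was distal in both lists; near Actl7b and Fam43a the perigonadal peak and near Slc22a23 the inguinal peak lay in an annotated repeat. The peak centres of a pair were a median of 30 bp apart and at most 158 bp, and 70 pairs were within 50 bp. Both peaks had more than 12 tags at 65 sites and more than 20 tags at 25, and neither had more than 12 at 8. Across the 89 sites the log2 scores had a Pearson's r of 0.592 and a Spearman's rho of 0.585, a description over sites of the same pair of libraries. The nearest gene was protein-coding at 68 sites and non-coding at 21, and 87 different genes were named. Where a pair of scores is given below, the inguinal score comes first and then the perigonadal one.

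The tallest shared site lay between Cebpb, which encodes a transcription factor of fat cell differentiation, and Ptpn1, which encodes a phosphatase that acts on the insulin and leptin receptors. It was at chr2:167823448-167823650 in the inguinal list, 108.8 kb upstream of the Ptpn1 promoter and 133.0 kb from the Cebpb gene. The inguinal score was 42.1 (Poisson 95% interval 31.8 to 54.7, rank 20 of the list) and the perigonadal score 68.8 (54.3 to 85.8, rank 11). It was the only peak of either list in this interval of 240.3 kb, in repeats or out of them. The tallest distal peak of the inguinal list, 45.1 (34.4 to 58.1), lay at chr18:33562729-33562931 between Nrep and Epb41l4a, with 27.3 (18.6 to 38.8) in perigonadal fat. At chr14:76857493-76857695, between Serp2 and Lacc1, the scores were 31.6 (22.8 to 42.7) and 31.7 (22.2 to 43.9). A second shared site in the same interval, 85.0 kb from Lacc1, scored 14.3 and 16.7.

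Of the 12 tallest sites, one at chr10:29414406-29414608 scored 27.1 (19.0 to 37.5) and 29.1 (20 to 40.9). The authors assigned it to Rnf146, a ubiquitin ligase gene, but it lay 38.5 kb from the gene body of Rspo3, which encodes an R-spondin that enhances WNT signals. Another at chr19:56202745-56202947 scored 22.6 (15.2 to 32.2) and 22.9 (15.0 to 33.6), between Tcf7l2, a transcription factor gene of the WNT pathway, at 269.1 kb, and Habp2, which encodes a hyaluronan-binding protease, at 84.2 kb. A site between Fos and Jdp2, which both encode AP-1 family proteins, lay 55.3 and 65.9 kb from them at chr12:85532548-85532750. It scored 22.6 (15.2 to 32.2) and 30.9 (21.5 to 42.9), within the non-coding gene Gm32296. Beyond Bcl2l11, which encodes the pro-apoptotic protein BIM, a site 113.2 kb from the promoter at chr2:128240657-128240859 scored 24.8 (17.1 to 34.9) and 23.8 (15.7 to 34.6).

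The other sites of the 12 tallest lay beside genes of varied function. Between Mrps6, a mitochondrial ribosomal protein gene, and Kcne2, which encodes a potassium channel subunit, the scores were 28.6 and 28.2 (chr16:92228570-92228772). Upstream of Trpm3, a cation channel gene, they were 25.6 and 32.6 (chr19:21991099-21991301). A site near Klhl13, an adaptor gene of a ubiquitin ligase, scored 32.3 and 23.8 (chrX:23136788-23136990). Like the gap of 1476.9 kb around the Klhl13 site, the gaps around the next sites were wider than 1 Mb. In the 1453.2 kb between Dhx35, a helicase gene, and Gm826 the scores at chr2:160246452-160246654 were 27.8 and 24.7, and a second shared site there scored 21.8 and 15.9. In the 1807.8 kb between Slc4a3, an anion exchanger gene, and Epha4, an ephrin receptor gene, the site at chr1:76731044-76731246 scored 27.1 and 22.9.

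**Figure D3:**
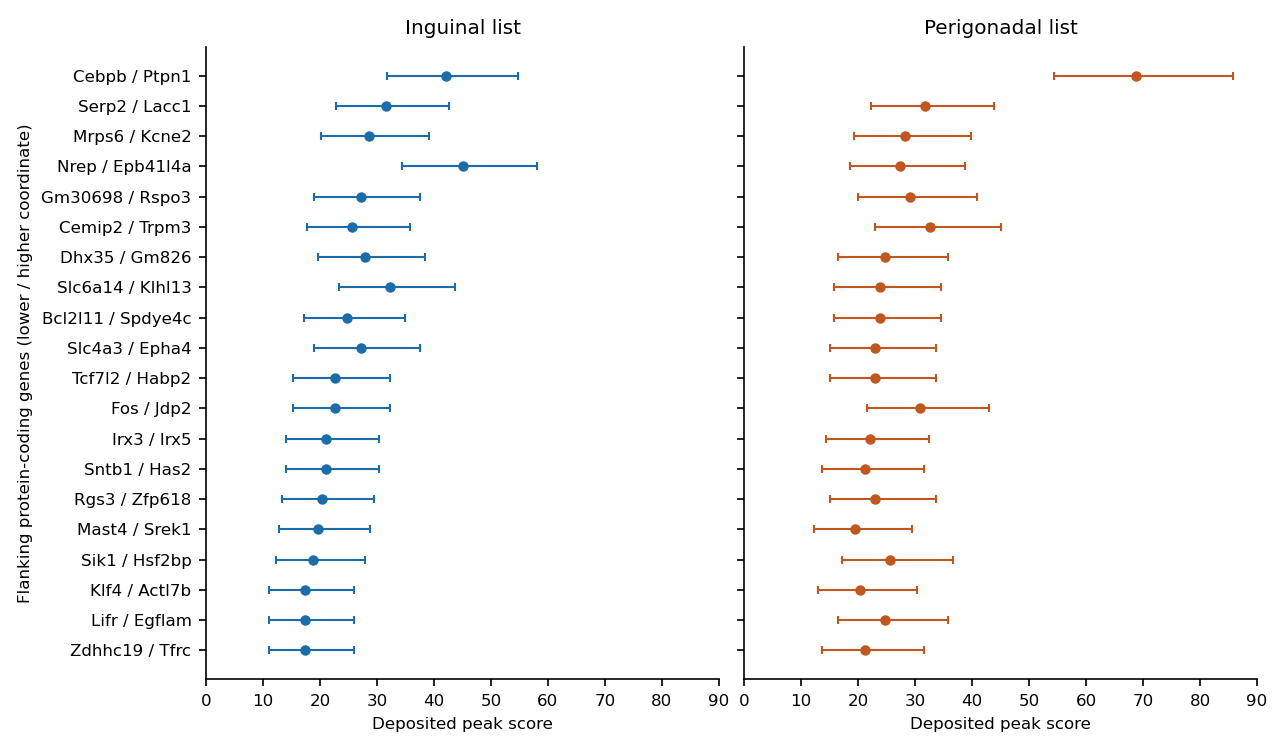
Deposited scores of the 20 shared distal sites that stand highest when ordered by the lower of their scores, in the inguinal (left) and perigonadal (right) list, labelled by the flanking protein-coding genes. Points are scores and bars exact Poisson 95% intervals of their tags; the site between Cebpb and Ptpn1 leads in perigonadal fat with 68.8, and the site between Nrep and Epb41l4a leads in inguinal fat with 45.1.

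The nearest gene of this last site was the microRNA gene Mir6343. Genes whose symbol starts with Mir were the nearest gene of 11 inguinal and 28 perigonadal distal peaks. Of the latter, 1 was at Mir124-2hg, a microRNA host gene. The share of such genes over all peaks was not computed. A microRNA gene was the nearest gene of 3 shared sites, at Mir6343, Mir28c and Mir467h. MicroRNAs pair with messages through bases 2 to 8, the seed, shown in capitals for the mature RNAs of this group that the RefSeq table holds. Their seeds differ.
mmu-miR-6343: uGUAAAGUaggagcugacugac
mmu-miR-467h: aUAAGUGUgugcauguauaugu
The site 129.0 kb from Mir467h scored 12.8 in inguinal and 16.7 in perigonadal fat. That of Mir28c lay 469.9 kb away and scored 25.6 and 15.9.

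Some shared sites stood tall in one list and nearer to the median of the distal peaks in the other. Near 9530068E07Rik, on the side of Fstl4, the scores were 11.3 (6.3 to 18.6) and 52.9 (40.4 to 68.1). At Pappa, which encodes a protease that cleaves IGF-binding proteins, a site 529.0 kb upstream scored 9.78 and 30.0, and at Gnai1, an inhibitory G protein gene, a site scored 12.8 and 33.5. Near Gm11426 the scores were 27.1 and 11.5, and near Usp25, a deubiquitinase gene, 19.6 and 8.82. These sites were chosen after their values were seen, and 1 library a depot gives no check of such differences.

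The tallest inguinal distal peak without a partner lay 95.5 kb from the promoter of Ly86 at chr13:37440739-37440941 and scored 22.6 (15.2 to 32.2). Ly86 encodes a secreted protein that binds CD180, a Toll-like receptor homologue. The next lay near the non-coding genes 1700017G19Rik (20.3) and Ccdc34os (19.6), the latter inside the RefSeq model of Ccdc34. A shared peak of 17.3 and 15.9 lay within 10 kb of the peak at Ccdc34os. Others lay at Spsb1 and 1700012D14Rik (17.3 each), at Agtr1a, an angiotensin II receptor gene (15.0), 834.4 kb from Cdh11 (15.0), and 236.0 kb upstream of Nrip1, a nuclear receptor corepressor gene active in fat (14.3).

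In the perigonadal list the tallest unshared distal peak, 30.0 (20.8 to 41.9), was assigned to the non-coding gene 2310008N11Rik and lay 94.3 kb from Zfp703 at chr8:26882819-26883003. A peak 116.9 kb upstream of Pitx1, a homeobox gene of hindlimb development, scored 29.1 (20 to 40.9). Next were 2 peaks upstream of Cd180, with 25.6 (17.1 to 36.7) and 24.7 (16.4 to 35.7). The remainder lay at Hspa4, a heat shock protein gene (23.8), at Zfp330 and Piwil4 (21.2 each) and at Tiam2, a Rac exchange factor gene (20.3). None of the unshared distal peaks lay within 1 kb of a peak of the other list. Within 10 kb 11 of 196 inguinal (5.61%) and 20 of 501 perigonadal ones (3.99%) did. Within 100 kb the counts were 58 (29.6%) and 97 (19.4%). The lists searched differed in length, at 3956 perigonadal and 1785 inguinal peaks. The same shares were not computed over all unshared peaks.

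The neighbourhoods were described next by the intervals between protein-coding gene bodies. The interval that held a distal peak had a median length of 495.2 kb in inguinal and 549.2 kb in perigonadal fat, and 46.5% and 48.8% of peaks lay in intervals of at least 500 kb. In no RefSeq gene model were 81.0% and 79.6% of peaks, while 19 and 28 peaks lay inside a protein-coding model of that table and 35 and 92 only inside other models. Distal peaks fell in 544 intervals, 231 with an inguinal and 441 with a perigonadal peak. Both depots had a peak in 128 intervals, 55.4% of the inguinal and 29.0% of the perigonadal ones, and 47 of these held no shared peak. The same shares were not computed for other classes of peaks. A single peak was found in 368 intervals and at least 5 in 8.

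The largest number, 8 perigonadal and 0 inguinal peaks, lay in the 925.3 kb between Pik3r1, which encodes the regulatory subunit of PI3-kinase, and Cd180. Of these 8 peaks, 7 had Cd180 as the nearest gene. The 2 tall ones stood 99.7 and 245.7 kb from the Cd180 gene, and the others scored 7.93 to 9.7. These lower peaks had at most 12 tags, a height at which 3.23% of perigonadal distal peaks were shared. Between the adhesion receptor genes Adgrl2 and Adgrl4, 2448.8 kb apart, lay 3 inguinal and 4 perigonadal peaks. Of these, 2 pairs were shared, with scores of 12 and 25.6 and of 12 and 23.8, and they lay 507.3 and 577.3 kb from Adgrl2. Between Got2 and Cdh8, a cadherin gene, lay 1 inguinal and 5 perigonadal peaks in 3136.1 kb, and the inguinal peak was shared. Upstream of Cpeb2, which encodes an RNA-binding protein, lay 5 perigonadal peaks of 7.93 to 13.2 and 0 inguinal ones. The perigonadal list is the longer, at 3956 peaks against 1785, and no difference between depots can be drawn from such counts. Dapk1, a death-associated kinase gene, had 2 and 3 peaks, and Has2, which makes hyaluronan, 2 and 2, each with 1 shared pair. The non-coding genes 4930517M08Rik, with 3 and 2 peaks, and Gm5086, with 1 and 3, also had 1 shared pair each.

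**Figure D4:**
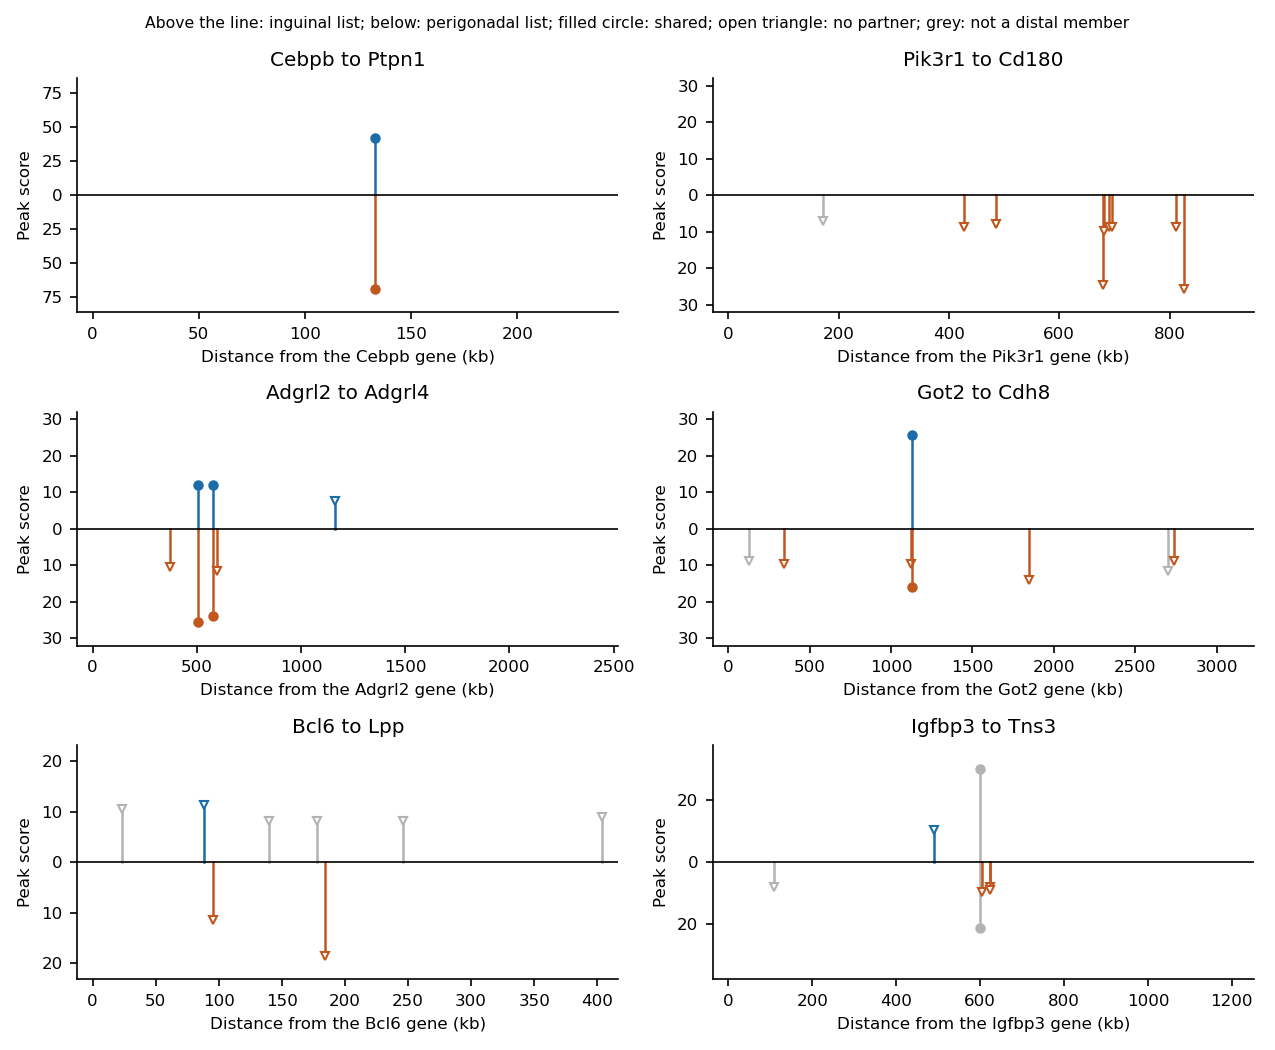
Peaks in 6 intervals between protein-coding genes, by distance in kb from the gene named first, with inguinal scores above and perigonadal scores below the line. Filled circles are shared and open triangles unshared peaks, and grey marks peaks that are in a repeat or within 50 kb of a promoter. The interval from Pik3r1 to Cd180 holds perigonadal peaks alone, and the 1 pair from Cebpb to Ptpn1 is shared.

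The distal peaks named 259 nearest genes in inguinal and 503 in perigonadal fat, and 115 genes were named in both, 44.4% and 22.9%. No shared peak was behind 30 of the 115. This overlap was not computed for the nearest genes of all peaks, so it cannot be read as particular to distal peaks. Among 21900 protein-coding genes 195 were the nearest gene of an inguinal distal peak, 0.89%, and 391 of a perigonadal one, 1.79%. The rule itself places these genes beside wide gaps, so the gaps are a description. The median of the longer flanking gap was 403.5 kb for the inguinal and 412.9 kb for the perigonadal nearest genes, and 30.97 kb for all protein-coding genes. Of the 1281 genes with a gap of at least 500 kb, 80 (6.25%) and 170 (13.3%) were named. A peak within 50 kb of the promoter was also found for 17 of the 195 (8.72%) and 89 of the 391 (22.8%), against 4.25% and 8.89% of all protein-coding genes, not matched for gaps. The counts of gene lists below depend on these gaps, so the median longer gap is given for each list that is described.

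Genes of growth hormone, cytokine receptor and STAT signalling were named for 3 of 25 members in each depot (median gap 108.0 kb). Lifr, the leukaemia inhibitory factor receptor gene, had a shared peak of 17.3 and 24.7 located 61.4 kb from its promoter and 4.4 kb beyond the gene body, in a gap of 8.6 kb. Igfbp3, which encodes a carrier of IGF, had 1 inguinal peak of 10.5 and 3 perigonadal peaks of 7.93 to 9.7. These lay 489.9 to 623.8 kb from the gene and none was shared, although a shared peak in a repeat, 30.1 and 21.2, lay in the same interval. Bcl6 itself had an inguinal distal peak of 11.3 (6.3 to 18.6) and perigonadal ones of 18.5 (11.5 to 28.3) and 11.5 (6.1 to 19.6). They lay between Bcl6 and Lpp, at 88.3 kb and at 183.9 and 95.2 kb from the Bcl6 gene, and none overlapped. The peaks of this interval outside the distal class were all inguinal and unshared. Those in repeats scored 8.27 each, at 139.9, 177.5 and 245.9 kb from Bcl6. Those within 50 kb of a promoter scored 10.5 at 23.3 kb and 9.03 at 403.8 kb.

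Of insulin signalling genes 1 of 24 was named in inguinal and 4 of 24 in perigonadal fat (median gap 198.3 kb). Beside Ptpn1 these were Grb10, an adaptor of the insulin receptor (9.7), Irs2, an insulin receptor substrate gene (8.82), and Pik3r1 (8.82), all unshared and of 10 or 11 tags. Adipocyte transcription factors counted 2 and 4 of 25 (254.1 kb). Zfp521, which encodes a factor that restrains adipogenesis, had a shared peak 112.4 kb upstream with 12 and 19.4. Ppargc1a, the PGC-1 alpha gene, had an inguinal peak of 8.27, and Klf4, Nfib and Tle3 had perigonadal peaks of 7.05 to 9.7. Lipid and secreted products of adipocytes, whose median gap was 24.35 kb, counted 0 and 1 of 25, the latter Acsl1, a fatty acyl-CoA synthetase gene, with 15.0 at 51.4 kb. No clock gene of 20 was named in either depot (58.68 kb).

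Genes that BCL6 regulates in lymphocytes counted 2 and 3 of 22 (112.4 kb). Prdm1, which encodes the repressor BLIMP-1, had an inguinal peak of 9.03 at 274.7 kb and a perigonadal peak of 7.93 at 118.9 kb. Bach2, a B cell repressor gene, had a perigonadal peak of 9.7, and Bcl6 is the remaining member.

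Developmental transcription factors counted 3 of 44 in inguinal and 9 of 44 in perigonadal fat (608.1 kb). Between Irx3 and Irx5, homeobox genes of 1 cluster, a shared site at chr8:92021456-92021658 scored 21.1 (14.0 to 30.4) and 22.0 (14.3 to 32.5), 219.8 and 336.1 kb from these genes. Irx5 had an inguinal peak of 8.27 on its other side. Tbx15, a T-box gene of subcutaneous fat, had an inguinal peak of 11.3 at 205.4 kb. The other 8 perigonadal members, among them Foxp1 (10.6), Tbx18 (9.7) and Maf (8.82), had unshared peaks of 7.93 to 10.6. Ligands, receptors and antagonists of TGF-beta, BMP and WNT signalling counted 3 and 5 of 30 (159.9 kb). Dkk2, a WNT antagonist gene, had a shared peak of 10.5 and 14.1. Inhbb, which encodes an activin subunit, had unshared peaks of 8.27 and 8.82, Tgfbr2 an inguinal peak of 8.27 and Sfrp2, another antagonist gene, a perigonadal peak of 8.82.

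Neuronal and other adhesion genes beside gene deserts had the longest median gap of these lists, 2033 kb, and counted 4 and 11 of 34, with no shared peak. The tallest inguinal peaks of this list were those of Cdh11, 15.0 and 9.78, and the perigonadal peak of Cdh11 scored 8.82. Every peak of the list but the inguinal ones of Cdh11 had at most 12 tags. Of distal peaks up to that height 10.2% of inguinal and 3.23% of perigonadal ones were shared. Nlgn1, Slit3 and Pcdh18 had perigonadal peaks of 9.7. Of markers of other cell types, none of 14 macrophage (median gap 29.16 kb), 13 lymphocyte (32.68 kb) and 12 epithelial genes (40.16 kb) was named in either depot. In perigonadal fat 1 of 13 preadipocyte and fibroblast genes (82.1 kb), Col3a1 (7.93), and 1 of 12 endothelial genes (125 kb), Cdh5 (9.7), were named, and in inguinal fat none. Of all protein-coding genes 0.89% were named in inguinal and 1.79% in perigonadal fat. At counts of 0 or 1 these short marker lists cannot be told from that background. The same holds for clock genes, with 0 of 20 in each depot, and for lipid and secreted products, with 0 and 1 of 25. Shares of the other lists also rest on few genes and carry no interval. The highest were 12%, or 3 of 25, for growth hormone, cytokine receptor and STAT signalling in inguinal fat and 32.4%, or 11 of 34, for adhesion genes in perigonadal fat. Of genes with a gap of at least 500 kb 6.25% and 13.3% were named, and no list was matched for gaps. A peak beside a marker gene does not show in which cells it arose.

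The distal share was also counted by chromosome, without a test. On chromosome 13 it was 24.7% of 219 perigonadal peaks (19.4 to 30.8%) and 25.3% of 91 inguinal peaks (17.5 to 35.1%). On chromosome 3 it was 19.2% of 214 perigonadal and 25.3% of 95 inguinal peaks. On chromosome 12 it was 18 of 73 inguinal peaks (24.7%, 16.2 to 35.6%) and 16 of 174 perigonadal peaks (9.20%, 5.74 to 14.4%). These intervals did not overlap, but they cover counting error only and not variation between animals. The chromosomes named here were singled out from all chromosomes after the values were seen. No difference between depots can therefore be drawn from chromosome 12. Chromosome X held 6 distal peaks in each list, of 14 inguinal and 30 perigonadal peaks, and 4 of the 6 were shared in each. Over all chromosomes 31.0% of inguinal and 14.8% of perigonadal distal peaks were shared.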

How the data were processed

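The processed peak lists of the BCL6 libraries were used. Bowtie 1.2, HOMER and the build mm10 are named in the submitters' processing notes, and the peaks were annotated with HOMER on mm10, per the file headers. The inguinal header names a false discovery rate of 0.001 and the perigonadal header names no threshold, so calling limits may differ between depots. The deposited score is a signal of the authors, scaled to a total that no source used here gives, which leaves the library depth unknown. The focus ratio is a fraction as deposited. Distances are the authors' values in base pairs from the nearest promoter. All peaks of a list had 1 width, 202 bp in inguinal and 184 bp in perigonadal fat, as end minus start. Pooling of libraries is not stated.

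Scores were read as tags where they were whole multiples of a step (100% of peaks, within 0.006 below a score of 10 and 0.06 from there). Shares carry Wilson 95% intervals and scores exact Poisson 95% intervals of tags; both cover counting error only, since PCR copies of a molecule could not be told apart. The overlap and counting steps were tested on simulated data. Gene names, gene bodies and promoter sequences were taken from RefSeq tables of GRCm38.p6, matched by Entrez number for 258 of 259 inguinal and 503 of 503 perigonadal nearest genes, which restored a name that had been turned into a date. Python 3.11.15, pandas 2.3.3, numpy 2.4.6, SciPy 1.17.1 and matplotlib 3.10.9 were used.

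The members, the 14 gene lists (313 of 314 entries matched) and the tests were chosen with earlier results of these data known. Named were the 12 shared sites with the highest lower score, the 8 tallest unshared peaks per list, the 8 genes with most distal peaks, the 3 farthest peaks per list, the 2 peaks on either side of 50 kb per list and up to 4 members per gene list with the tallest peaks. Among the 8 genes with most distal peaks, Gm5086 and Has2 were tied at 4 peaks with others, such as Lacc1 and Thbs2. They were taken by order of name. Further names complete a count or were picked with their values in view. The alternatives changed the distance limit, the overlap, repeats, tag number, list length, chromosomes (autosomes alone) and the definition of the nearest gene. The input libraries were not analysed here.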

Additional observations from a re-analysis of the deposited data

How the results depend on the processing

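The number of distal peaks, the percent shared, the median score and the number of nearest genes were recomputed under 36 alternatives, and 28 moved by less than the limits set (1.5 times for a count, the 95% interval for a share). With peaks of more than 12 tags alone, 118 inguinal and 155 perigonadal distal peaks were left and 60.17% and 47.1% were shared. With a limit of 100 kb 186 inguinal peaks were left. With repeats kept, 11.89% of perigonadal peaks had a partner. At equal length of the lists, 267 perigonadal distal peaks were left and 28.84% had a partner. The nearest end of a protein-coding gene in place of the nearest promoter gave 236 inguinal and 463 perigonadal genes, and 158 of 265 and 359 of 560 peaks kept the gene. No paired analysis was possible because each depot had 1 BCL6 library. The median distal peak rests on 12 tags in inguinal and 10 in perigonadal fat, which limits the precision of single scores; the part of depth in the absence of a partner was not tested.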
